A study of Homo sapiens with 12 samples.

Results

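BCL3 and 9 core genes of the NF-kappaB pathway (NFKB1, NFKB2, REL, RELA, RELB, NFKBIA, NFKBIB, NFKBIE and TNFAIP3) were followed by RNA sequencing in cells labelled SW1736, the name of an established anaplastic thyroid cancer line. The genes were taken by symbol with no threshold on their values, but the list was drawn up with earlier results of these data known. All 10 were found among the 56832 gene symbols counted in 12 libraries, and all 10 passed the filter on low counts. The cells stably carried the vector pCDH-TRB, named for thyroid hormone receptor beta (TRB), or pCDH-EV, the empty vector (EV). Every culture was kept 24 h without hormone and then received 10 nM triiodothyronine (T3), the active thyroid hormone, or its sodium hydroxide vehicle for 24 h. This gave 4 groups of 3 libraries: EV vehicle, EV T3, TRB vehicle and TRB T3. Whether the stable cells were 1 clone or a pool, and whether libraries came from separate cultures, is not given in the sources used here, so p-values measure the spread between these libraries, which may be technical.

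NF-kappaB is a family of dimeric transcription factors built from RELA, REL and RELB, which carry activation domains, and from p50 and p52, which are cut from the precursors encoded by NFKB1 and NFKB2. In resting cells the dimers are held in the cytoplasm by inhibitors of the IkB family, such as those encoded by NFKBIA, NFKBIB and NFKBIE. Receptor signals activate the IkB kinases, the inhibitors are degraded, and the freed dimers bind kappaB sites in DNA. BCL3 is an atypical nuclear IkB protein that binds p50 and p52 dimers and can raise or lower transcription of their targets. TNFAIP3 encodes A20, a ubiquitin-editing enzyme that shuts the signal off and is itself a target of the pathway. Thyroid hormone receptors bind DNA at pairs of the half-site AGGTCA and related sequences.

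Promoter windows of several of these genes hold matches to the kappaB consensus, shown here because this is the sequence that the family is known to bind. RefSeq promoter windows (GRCh38.p14, 250 bases before each annotated start) were matched by symbol for 8 of the 10 genes, with 13 windows in all. RELB and NFKBIE had no entry. The kappaB consensus GGGRNWYYCC (R is A or G, N any base, W A or T, Y C or T) was searched on both strands. It was held by 7 of the 13 windows, against 5.21% of 35116 RefSeq promoter windows of the same length. Counted by gene, 6 of the 8 held it, against 6.28% of 27305 genes. AGGTCA was in 0 of the 13 windows and in 12.1% of all windows. Capitals mark the kappaB match in the lines that follow, each written 5′ to 3′ on the strand of its gene, with 1 match shown per gene.
NFKB1, chr4:102501300-102501329: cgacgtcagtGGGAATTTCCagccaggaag
NFKB2, chr10:102394462-102394490: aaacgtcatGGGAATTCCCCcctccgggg
REL, chr2:60881518-60881546: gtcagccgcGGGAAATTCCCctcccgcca
NFKBIA, chr14:35404811-35404840: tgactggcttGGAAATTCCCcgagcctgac
NFKBIB, chr19:38899932-38899960: ggcgtggtgGGGAATTTCCCgcagggcgg
TNFAIP3, chr6:137867182-137867211: acgtgactttGGAAAGTCCCgtggaaatcc
NFKBIA lies on the minus strand and the other 5 on the plus strand. The matches in NFKB2, REL and NFKBIB are runs of 11 bases in which overlapping matches were joined, and those of NFKBIA and TNFAIP3 were found on the strand opposite to the gene. By the GENCODE release 29 annotation, the matches of NFKB1 and NFKBIA lie outside the gene, those of NFKB2, REL and TNFAIP3 in an annotated exon, and that of NFKBIB in an intron. A match describes the letters only and does not show that a factor binds there.

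The BCL3 window held neither motif, and a part of it is shown for its base composition only, which was not related to the counts. The 89 bases before the first BCL3 exon that starts within the window have a GC content of 83.1%.
BCL3, chr19:44748458-44748546, plus strand: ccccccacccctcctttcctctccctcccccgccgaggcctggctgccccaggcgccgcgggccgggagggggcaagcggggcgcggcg
On GRCh38 the BCL3 gene spans chr19:44747705-44760044, so the bases shown lie within the span of the gene. Whether an exon that starts earlier covers them was not checked. The GC content of a gene is that of its longest annotated transcript, and BCL3 has 67.4%, the highest of the 10 genes. REL (chr2:60881521-60931610) has the lowest, at 38.7%. NFKB1 (chr4:102501329-102617302) stands at 50.1% and TNFAIP3 (chr6:137867188-137883312) at 49.5%.

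Counts within genes totalled 3819306 to 13086717 per library, and the 10 genes had 12 to 1053 counts each. Levels are given in CPM, which divides a count by the size of its library, here after trimmed mean of M-values (TMM) scaling. THRB, which encodes the receptor, stood at 12.3 to 18.3 CPM in the 6 EV libraries, 79.8 to 80.4 in TRB vehicle and 190 to 322 in TRB T3, so the libraries labelled TRB were the ones with more THRB transcript. TRB T3 replicate 2 stood apart: its log2 CPM minus that of replicates 1 and 3 correlated with the GC content of the longest transcript across 12130 tested genes at a Spearman rho of -0.89. Other libraries departed from their group mates along GC content too, by the same measure at -0.82 in EV T3 replicate 2, 0.79 in EV T3 replicate 3 and -0.66 in EV vehicle replicate 2. Across the 10 genes the correlation in TRB T3 replicate 2 was -0.81. BCL3 deviated by -3.19 on the log2 scale and REL by 1.10. TRB T3 replicate 2 also had the fewest genes with a count, 17833 beside 19030 to 22881 in the others. Its share of reads outside genes was 24.4%, beside 2.14% to 17.2%. Its share of alignments counted as not unique was 19.0%, beside 33.1% to 92.0%. The part of these traits in its departure was not tested. Each result is therefore given for all 12 libraries and for the 11 without that library, and GC offsets, which remove each library's smooth trend against GC content, were also fitted. All groups share 1 estimate of the spread, so that library enters the SE of every comparison with 12 libraries. The biological coefficient of variation, a measure of this spread, was 0.335 with 12 libraries and 0.134 with 11. A missing call with 12 libraries does not show that a gene was unchanged, also in comparisons without TRB T3. Alignments counted as not unique took 33.1% to 66.3% of each file in EV vehicle and 69.6% to 92.0% in EV T3. This share thus moved with T3 in EV cells. In TRB vehicle it was 43.7% to 66.9%, and in TRB T3 replicates 1 to 3 it was 58.9%, 19.0% and 66.6%. Its part in the results was not tested.

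Defining genes of cell types were read beside the labels. Of 8 thyroid follicular genes TSHR and FOXE1 were at 0 in all 12 libraries, TG reached 0.625 CPM and PAX8 6.98. Of 5 genes of simple epithelia all were above 1 CPM in every library, with sums of 2028 to 5013 CPM. Among 4 genes of mesenchymal-like cells CDH2 was at 0 and VIM reached 1.51 CPM, and the list's sum of 10.3 to 11.3 CPM in TRB vehicle and 152.7 to 306 in TRB T3 came mostly from FN1. Of 5 leukocyte genes, CD3E was at 0, PTPRC and ITGAM reached 0.217 and 0.172 CPM, and LYZ alone was above 1 CPM in every library (778 to 1589). The monocyte gene CD14 was at 9.23 and 9.74 CPM in TRB T3 replicates 1 and 3, at 0.18 in replicate 2 and at no more than 2.28 in the other groups. Thyroid genes at 0 or low levels and VIM near 0, beside high epithelial genes and LYZ, raise a doubt about the labelled identity of the cells, which was not tested. The part of the FN1 and CD14 changes in the results was not tested.

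**Figure D1:**
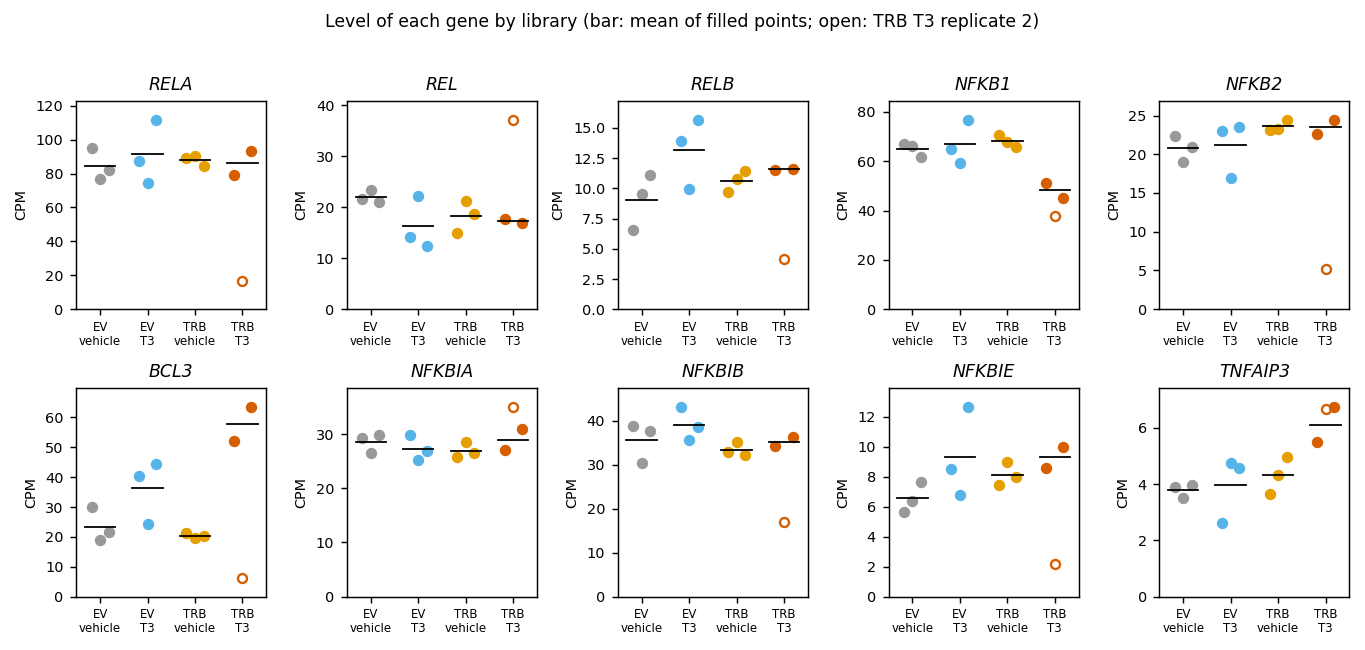
Level of each of the 10 genes in CPM (y axis, from 0) in every library, grouped by vector and treatment (x axis), with TRB T3 replicate 2 as an open circle and the mean of the filled points as a bar. BCL3 stood at 52.2 and 63.6 CPM in TRB T3 replicates 1 and 3 and at 19.6 to 21.4 in TRB vehicle, while NFKB1 was lower in all 3 TRB T3 libraries.

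Per length of exon, which allows levels to be compared between genes, the order in EV vehicle ran from RELA (15.5 ± 1.75 CPM per kb, SD, n = 3) and NFKBIB (15.3 ± 1.97), which overlapped, to TNFAIP3 (0.751 ± 0.0478). NFKBIA (12.03 ± 0.733), NFKB1 (10.4 ± 0.448), BCL3 (7.23 ± 1.79) and NFKB2 (4.63 ± 0.382) followed in that order, and none of them overlapped its neighbours. RELB (2.99 ± 0.772) and NFKBIE (2.54 ± 0.388) overlapped each other, and REL stood at 1.68 ± 0.0944. In TRB T3, without replicate 2, BCL3 came first at 17.9 ± 2.47 CPM per kb (n = 2), with a range that overlapped RELA at 15.8 ± 1.83. NFKB1 stood at 7.72 ± 0.691 there.

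T3 was first compared with vehicle in TRB cells, to ask which of the 10 genes respond to the hormone where its receptor has been added. BCL3 transcripts rose 2.92-fold in the 11-library fit, and NFKB1 transcripts fell in both fits. The other 8 genes did not pass, so the activators RELA, REL and RELB, the second precursor gene NFKB2 and the 3 classical inhibitors gave no call. With 12 libraries 1 of the 10 genes passed (edgeR quasi-likelihood test, Benjamini-Hochberg adjusted p under 0.05), where 14.7% of all 14431 tested genes did. With 11 libraries 2 of the 10 passed, where 33.3% of 14825 did, so the share among the 10 genes was not above the background. The median log2 change of the 10 was -0.20 with 12 libraries and 0.14 with 11, beside medians of 0.01 and -0.01 over all tested genes. In bulk RNA a lower level cannot be told apart from fewer expressing cells.

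BCL3, the nuclear partner of p50 and p52, stood at 21.4, 19.6 and 20.3 CPM in TRB vehicle replicates 1 to 3. In TRB T3 it stood at 52.2, 6.12 and 63.6 CPM in replicates 1 to 3. Replicates 1 and 3 were above all vehicle libraries and replicate 2, with 34 counts, below them, so the groups overlap with 12 libraries and not with 11. The log2 change was 1.00 (SE 0.601, edgeR adjusted p 0.279) with 12 libraries and 1.55 (SE 0.224, edgeR adjusted p 0.000173) with 11. On 11 libraries the call held in all 11 further fits that also left out 1 other library, at changes of 1.40 to 1.69. Exons of BCL3 share 65 bases with the microRNA gene MIR8085 on the same strand, and reads there are uncertain.

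NFKB1, whose product is the p105 precursor of p50, stood at 70.7, 67.7 and 65.8 CPM in TRB vehicle. In TRB T3 it stood at 51.3, 38.0 and 45.2 CPM. Every T3 library was below every vehicle library. The log2 change was -0.60 (SE 0.168, edgeR adjusted p 0.0354) with 12 libraries and -0.45 (SE 0.120, edgeR adjusted p 0.0125) with 11. The 12-library call held in 2 of 12 fits that left out 1 library, those without TRB T3 replicate 1 or 2, with adjusted p up to 0.155 in the others. On 11 libraries it held in 10 of 11 such fits, and was lost without TRB T3 replicate 3 (adjusted p 0.132).

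NFKB2, the p52 precursor gene, stood at 23.1 to 24.4 CPM in TRB vehicle and at 22.7, 5.22 and 24.5 with T3. Its change was -0.42 (SE 0.420) with 12 libraries and 0.04 (SE 0.145) with 11, and it did not pass. The 3 genes of the activating subunits behaved alike in this respect. RELA, the subunit of the classical p50 dimer, stood at 84.5 to 90.6 CPM with vehicle and at 79.0, 16.5 and 93.2 with T3 (11 libraries, 0.01, SE 0.155). REL, best known from lymphoid cells, stood at 14.9 to 21.3 CPM with vehicle and at 17.7, 37.2 and 16.9 with T3 (-0.04, SE 0.219). RELB, the usual partner of p52, stood at 9.66 to 11.4 CPM with vehicle and at 11.6, 4.14 and 11.6 with T3 (0.17, SE 0.202). With 12 libraries the changes of RELA, REL and RELB were -0.48, 0.38 and -0.20. For each of the 4 genes replicate 2 was the library farthest from the vehicle range, above it for REL and below it for the others. REL shares 5702 exon bases with the 3′ overlapping transcript AC010733.2, and its counts are uncertain to that extent.

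The classical inhibitor genes did not pass either. NFKBIA, whose product IkB-alpha is resynthesised after each signal, stood at 25.7 to 28.5 CPM with vehicle and at 27.0, 35.1 and 31.0 with T3 (11 libraries, 0.15, SE 0.125). NFKBIB stood at 32.2 to 35.2 CPM with vehicle and at 34.3, 17.1 and 36.2 with T3 (0.12, SE 0.135). NFKBIE stood at 7.42 to 8.96 CPM with vehicle and at 8.56, 2.16 and 9.99 CPM with T3 (0.23, SE 0.212). TNFAIP3, the A20 gene, was in all 3 T3 libraries (5.48, 6.66 and 6.75 CPM) above the vehicle libraries (3.66, 4.31 and 4.95). Its change of 0.53 (SE 0.226) did not pass with 11 libraries (edgeR adjusted p 0.0938), nor did that of 0.54 (SE 0.236) with 12 (adjusted p 0.156). TNFAIP3 had 17 to 73 counts per library, the thinnest counts of the 10 genes beside NFKBIE, and 95 of its exon bases are shared with an antisense gene.

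**Figure D2:**
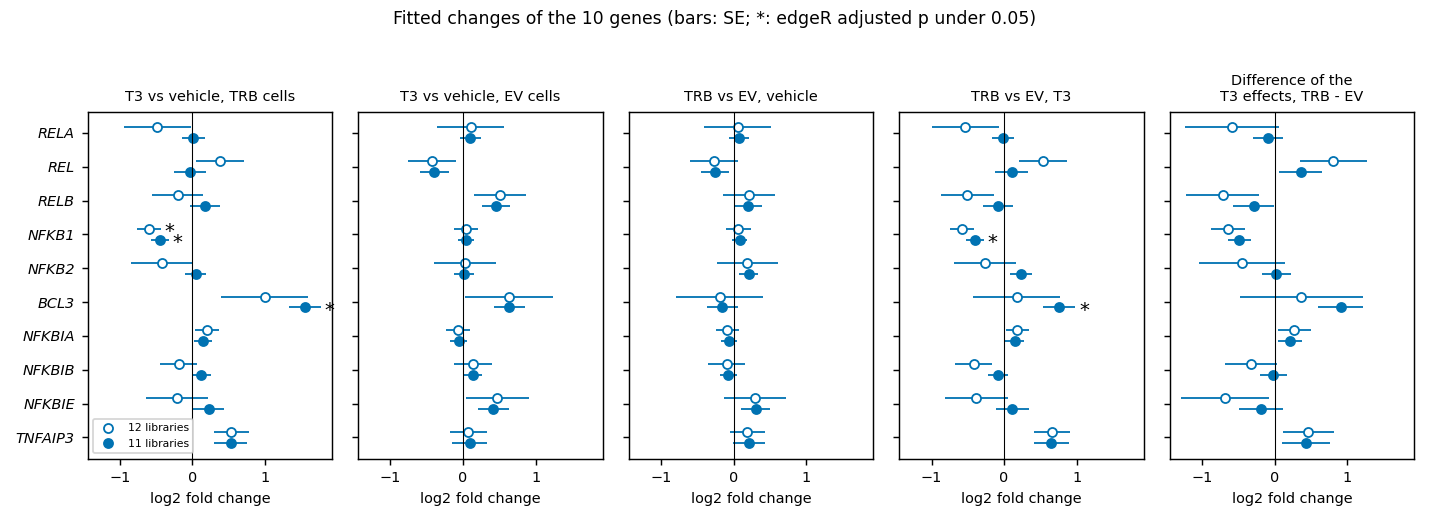
Fitted log2 fold changes (x axis) with their SE for the 10 genes (y axis) in the 5 comparisons, from 12 libraries (open) and 11 libraries (filled), with an asterisk where the edgeR adjusted p was under 0.05. With 11 libraries BCL3 passed at 1.55 (T3 in TRB cells) and at 0.76 (TRB against EV under T3), and NFKB1 had asterisks on the negative side.

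In EV cells the same hormone treatment tested the response without the supplied receptor, and none of the 10 genes passed. With 12 libraries edgeR called 0 of the 10 where 0.229% of all genes passed. An unadjusted edgeR p under 0.05 was found for 0 of the 10, beside 881 of all 14431 tested genes. With 11 libraries edgeR called 0 of the 10 where 7.33% passed. BCL3 and RELB, 2 of the 10, had an unadjusted p under 0.05, beside 4187 of all 14825. DESeq2 called none with 12 libraries and BCL3 with 11. For DESeq2, here and below, the share of all genes called is not given. BCL3 stood at 29.97, 18.8 and 21.6 CPM in EV vehicle and at 40.3, 24.4 and 44.3 in EV T3. The groups overlap, because T3 replicate 2 lies under vehicle replicate 1. The EV libraries are the same in both fits, while the estimate of the spread shared by all groups differs. The change was 0.63 (SE 0.603, edgeR adjusted p 0.935) with 12 libraries and 0.64 (SE 0.215, edgeR adjusted p 0.0867) with 11. In the 11-library fit that also left out EV T3 replicate 2 it passed at 0.94 (edgeR adjusted p 0.000765). REL (-0.68, adjusted p 0.00443), RELB (0.68, adjusted p 0.00929) and NFKBIE (0.66, adjusted p 0.0211) passed there too, while over all settings the adjusted p of these 4 genes reached 1. The share of all genes called in that fit is not given here. REL, which fell, has a GC content of 38.7%, and NFKBIE, RELB and BCL3, which rose, have 61.0%, 65.4% and 67.4%. The part of GC content in these calls was not tested. With GC offsets on 11 libraries, EV T3 replicate 2 included, REL (-0.05), RELB (0.13) and NFKBIE (0.16) did not pass (edgeR adjusted p 0.771, 0.653 and 0.548). RELB stood at 6.52, 9.56 and 11.1 CPM with vehicle and 13.9, 9.93 and 15.7 with T3 (0.46, SE 0.195, edgeR adjusted p 0.151 with 11 libraries). NFKB1 stood at 61.8 to 66.9 CPM with vehicle and 59.3 to 76.9 with T3, a change of 0.04 (SE 0.108) with 11 libraries. REL (-0.39, SE 0.204) and NFKBIE (0.42, SE 0.212) also had overlapping groups.

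The receptor without added hormone was compared with the empty vector in vehicle. With 12 libraries edgeR called 0 of the 10 genes where 0.0208% of all genes passed, and with 11 libraries it called 0 where 0.0742% passed. In both fits 0 of the 10 had an unadjusted edgeR p under 0.05, beside 213 of all 14431 genes with 12 libraries and 1837 of 14825 with 11. DESeq2 called 0 of the 10 as well. NFKB2 stood at 19.0 to 22.4 CPM in EV and 23.1 to 24.4 in TRB cells and did not pass (0.21, SE 0.133, edgeR adjusted p 0.440 with 11 libraries). BCL3 changed by -0.15 (SE 0.214) and NFKB1 by 0.08 (SE 0.106), and neither passed.

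With T3 in both, TRB and EV cells were compared for the part of the receptor under hormone. BCL3 was higher and NFKB1 lower in TRB cells in the 11-library fit. With 12 libraries edgeR called 0 of the 10 genes where 6.68% of all genes passed, and DESeq2 called NFKB1. An unadjusted edgeR p under 0.05 was found for 2 of the 10 (NFKB1 and TNFAIP3), beside 3679 of all 14431. With 11 libraries 2 of the 10 passed where 19.7% did. BCL3 in TRB T3 replicates 1 and 3 (52.2 and 63.6 CPM) was above the 3 EV T3 libraries (24.4 to 44.3). Its change was 0.76 (SE 0.225, edgeR adjusted p 0.0327) with 11 libraries and 0.17 (SE 0.597, edgeR adjusted p 0.850) with 12. NFKB1 was lower in all 3 TRB T3 libraries (38.0 to 51.3 CPM) than in EV T3 (59.3 to 76.9). Its change was -0.40 (SE 0.122, edgeR adjusted p 0.0346) with 11 libraries and -0.58 (SE 0.168, edgeR adjusted p 0.0684) with 12. In the fits that left out a further library from the 11, BCL3 kept its call in 5 of 11 and NFKB1 in 3 of 11. TNFAIP3 stood at 2.62, 4.75 and 4.56 CPM in EV T3, under all 3 TRB libraries, and did not pass (0.65, SE 0.245, edgeR adjusted p 0.0851 with 11 libraries).

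The T3 effects of TRB and EV cells were then compared with each other. With 12 libraries edgeR called 0 of the 10 genes where 2.59% of all genes passed. An unadjusted edgeR p under 0.05 was found for 1 of the 10 (NFKB1), beside 2879 of all 14431 genes. With 11 libraries edgeR called 0 where 15.2% passed. An unadjusted p under 0.05 was then found for 2 of the 10 (BCL3 and NFKB1), beside 4491 of all 14825. DESeq2 called none with 12 libraries and both BCL3 and NFKB1 with 11. The T3 effect on BCL3 was 0.91 larger in TRB cells in log2 units (SE 0.311, edgeR adjusted p 0.0675) with 11 libraries, and that on NFKB1 differed by -0.49 (SE 0.161, edgeR adjusted p 0.0613). With edgeR on 11 libraries the difference for BCL3 also passed with the replicate block and in 2 of 11 fits that left out 1 more library. That for NFKB1 passed in 1 of these 11. The comparisons within TRB cells and with T3 share the TRB T3 libraries, and those with vehicle share the vehicle libraries.

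GC content moved with these values, so each library's level was also read after its GC trend was removed. The share of all genes called with GC offsets is not given here, so calls with them are not set against a background. BCL3 then stood at 24.0, 21.1 and 19.6 CPM in EV vehicle, at 26.7, 27.2 and 23.9 in EV T3 and at 15.8, 14.3 and 15.2 in TRB vehicle. In TRB T3 it stood at 43.7, 77.4 and 45.8 CPM, so that replicate 2 went from the lowest of the 12 libraries to the highest. With GC offsets on all 12 libraries the T3 effect on BCL3 in TRB cells was 1.704 (SE 0.150, edgeR adjusted p 3.17e-06), and with 11 libraries it was 1.59 (SE 0.0898, edgeR adjusted p 2.35e-10). Over all settings run for this value the adjusted p ran from 2.35e-10 to 0.642. The difference between the T3 effects of TRB and EV cells on BCL3 passed with both (1.41, edgeR adjusted p 0.000742, and 1.28, edgeR adjusted p 1.49e-06), within a range over settings of 1.49e-06 to 0.970. With GC offsets on 11 libraries BCL3 was also higher with T3 in EV cells (0.31, SE 0.0929, edgeR adjusted p 0.0303) and lower in TRB than in EV cells in vehicle (-0.47, SE 0.0928, edgeR adjusted p 0.0188). Neither passed with the offsets on 12 libraries (adjusted p 0.327 and 0.567).

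NFKB1, near the middle of the GC range, moved less than BCL3 under this correction. In TRB T3 replicate 2 it still went from 38.0 to 50.7 CPM, from the lowest of its group to the highest. Its GC-adjusted level was 65.6 ± 3.29 CPM in EV vehicle, 63.4 ± 5.44 in EV T3, 66.9 ± 1.48 in TRB vehicle and 47.5 ± 3.88 in TRB T3 (SD, n = 3 in each). The T3 effect in TRB cells was -0.51 with 12 and with 11 libraries (edgeR adjusted p 0.000766 and 8.12e-05, within 8.12e-05 to 0.246 over settings). The difference from the T3 effect in EV cells was -0.47 in both and passed (edgeR adjusted p 0.0228 and 0.00491, within 0.00491 to 0.524). REL, which replicate 2 of TRB T3 put at 37.2 CPM, stood at 16.6 CPM there after the correction, beside 18.9 and 18.8 in its mates. The correction did not bring that library to its mates for most of the genes: it stood above both for 8 of the 10, at 95.3 CPM against 28.8 and 28.4 for NFKBIB, 43.2 against 9.58 and 8.53 for RELB, 68.1 against 24.5 and 27.8 for NFKBIA and 37.5 against 18.8 and 18.7 for NFKB2. The values with GC offsets on 12 libraries, that of BCL3 included, contain this library, and those on 11 do not. TNFAIP3 was higher in TRB than in EV cells with T3 when GC offsets were used with 12 libraries (0.74, SE 0.239, edgeR adjusted p 0.0369) and not with 11 (0.60, SE 0.235, edgeR adjusted p 0.0504), within 0.0296 to 0.520 over settings.

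**Figure D3:**
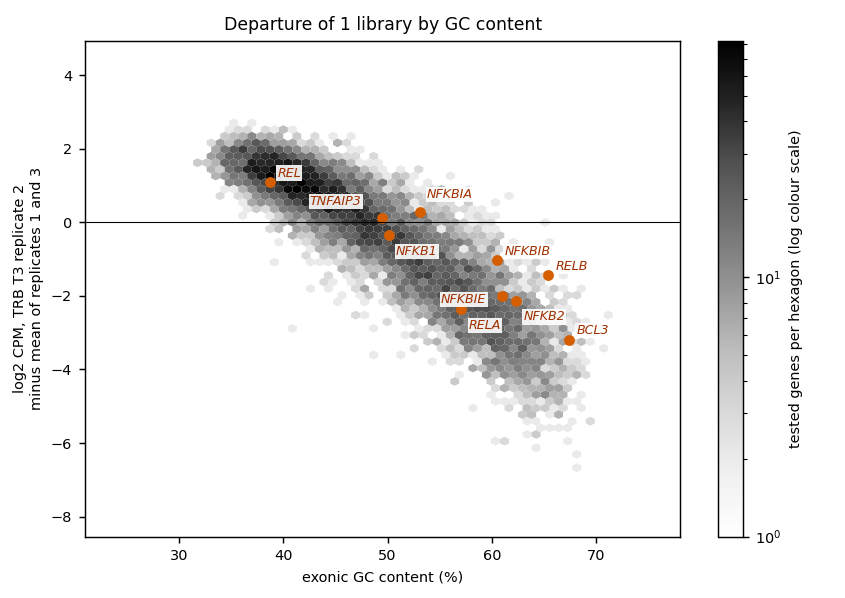
GC content of the longest transcript in percent (x axis, labelled exonic) against the log2 CPM of TRB T3 replicate 2 minus the mean of replicates 1 and 3 (y axis) for tested genes, as hexagons shaded by number, with the 10 genes as points. REL, at 38.7% GC, lies above 0 and BCL3, at 67.4%, lies at -3.19.

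**Figure D4:**
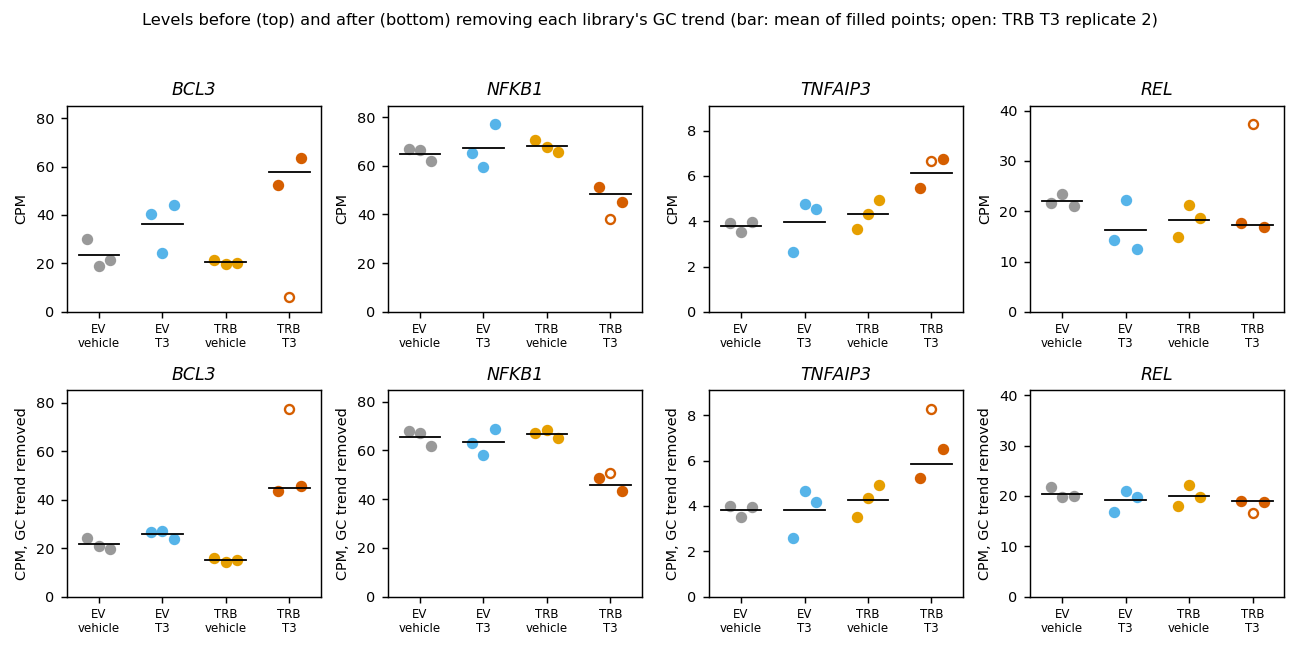
Level of BCL3, NFKB1, TNFAIP3 and REL in CPM by library before (top row) and after (bottom row) the removal of each library's GC trend, with the same y axis in each column, TRB T3 replicate 2 as an open circle and the mean of the filled points as a bar. The open BCL3 point moves from 6.12 to 77.4 CPM and the open REL point from 37.2 to 16.6.

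The genes that carry signals to NF-kappaB were read as lists of receptors, adaptors, kinases, further modulators and targets. T3 in TRB cells gave calls in each list, to be read against 14.7% of all genes with 12 libraries and 33.3% with 11. The share of adaptors called was below both of these and that of the modulators below the second. Of the 11 receptor genes 7 were tested, and 3 were called higher and 0 lower with 12 libraries (5 and 0 with 11). TLR3, the endosomal sensor of double-stranded RNA, had 0 counts in all 3 TRB vehicle libraries and 33, 20 and 13 in TRB T3. Its TRB T3 mean of 2.57 CPM was 9.44-fold above a floor of 3 counts per TRB vehicle library, which covers counting error only. It had at most 2 counts in any EV library, so it passed the filter on low counts only through TRB T3. Its call, which is among the 3 and the 5, is therefore not to be set against the share of all genes. TLR4, the receptor for bacterial lipopolysaccharide, stood at 3.36 to 4.95 CPM with vehicle and at 13.4, 36.0 and 12.7 with T3 (1.71, SE 0.263, edgeR adjusted p 0.000293 with 11 libraries). In EV cells TLR4 stood at 6.73 to 8.58 CPM with vehicle and at 6.83 to 15.6 with T3. With 11 libraries it did not pass between TRB and EV cells under T3 (0.19, SE 0.252, edgeR adjusted p 0.664). The difference of its T3 effects did not pass either (1.08, SE 0.360, edgeR adjusted p 0.0607). TLR2 and CD40 had 0 counts in all 12 libraries.

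Of 11 adaptor genes 1 was called higher and 0 lower with 12 libraries (2 and 1 with 11). It was RIPK1, the kinase scaffold under the TNF receptor, at 24.3 to 28.3 CPM with vehicle and 38.8 to 43.4 with T3 (0.60, SE 0.123, edgeR adjusted p 0.00230 with 11 libraries). With 11 libraries RIPK1 did not pass between TRB and EV cells under T3 (0.14, SE 0.125, edgeR adjusted p 0.504). Nor did the difference of its T3 effects (0.49, SE 0.168, edgeR adjusted p 0.0688). Of 10 genes of the IkB kinase complex and the kinases above it 2 were called higher and 0 lower (4 and 0 with 11). CHUK, which encodes the kinase IKK-alpha, stood at 27.0 to 33.5 CPM with vehicle and at 46.1, 128 and 49.8 with T3 (0.68, SE 0.161, edgeR adjusted p 0.00569 with 11 libraries). TAB2, an adaptor of the upstream kinase TAK1, rose by 0.57 (SE 0.157, edgeR adjusted p 0.0136 with 11 libraries). Between TRB and EV cells under T3, CHUK and TAB2 did not pass with 11 libraries (edgeR adjusted p 0.0971 and 0.128). The difference of the T3 effects was 0.70 for CHUK (edgeR adjusted p 0.0498) and 0.68 for TAB2 (0.0503).

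Of the 11 further modulators 10 were tested, with 2 called higher and 0 lower (3 and 0 with 11). Both called genes encode negative regulators of the pathway. CYLD, a deubiquitinase, stood at 16.5 to 16.6 CPM with vehicle and at 55.6, 152 and 51.0 with T3 (1.74, SE 0.146, edgeR adjusted p 1.66e-06 with 11 libraries). Its T3 effect differed from that in EV cells by 1.96 (SE 0.206, edgeR adjusted p 6.67e-05 with 11 libraries), and by 2.62 with 12 (adjusted p 0.0279). TAX1BP1, which helps A20 reach its substrates, stood at 171 to 189 CPM with vehicle and at 684, 3261 and 675 with T3. Its change of 3.09 with 12 libraries was 1.96 (SE 0.188, edgeR adjusted p 5.22e-06) with 11.

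Of the 27 target genes 16 were tested with 12 libraries, and 5 were called higher and 3 lower; with 11 libraries 17 were tested, and 8 were called higher and 4 lower. IRF1, a transcription factor of the interferon response, was at 10.3 to 11.5 CPM with vehicle and at 153, 57.6 and 157 with T3 (3.86, SE 0.138, edgeR adjusted p 1.03e-09 with 11 libraries). IL1A, the gene of interleukin 1 alpha, had 16, 25 and 15 counts in TRB vehicle and 1 count in each TRB T3 library. BIRC3, an inhibitor of apoptosis, stood at 3.46 to 3.88 CPM with vehicle and at 6.90, 25.5 and 7.12 with T3, and was higher in TRB than in EV cells with T3 (1.28, SE 0.252, edgeR adjusted p 0.00321 with 11 libraries). The other called targets with 12 libraries, named after their values were seen, were TNFAIP2, PTGS2 and CCND1, which rose, and the chemokine genes CXCL1 and CXCL8, which fell. In EV cells T3 gave no call in these 5 lists with 12 libraries, where 0.229% of all genes passed. With 11, where 7.33% passed, it gave 1 of 7 receptor and 1 of 10 kinase genes higher. Of 17 targets it gave 3 higher and 1 lower, and of 11 adaptors and 10 modulators none. IRF1 rose by 1.58 (SE 0.133, edgeR adjusted p 2.82e-05).

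**Figure D5:**
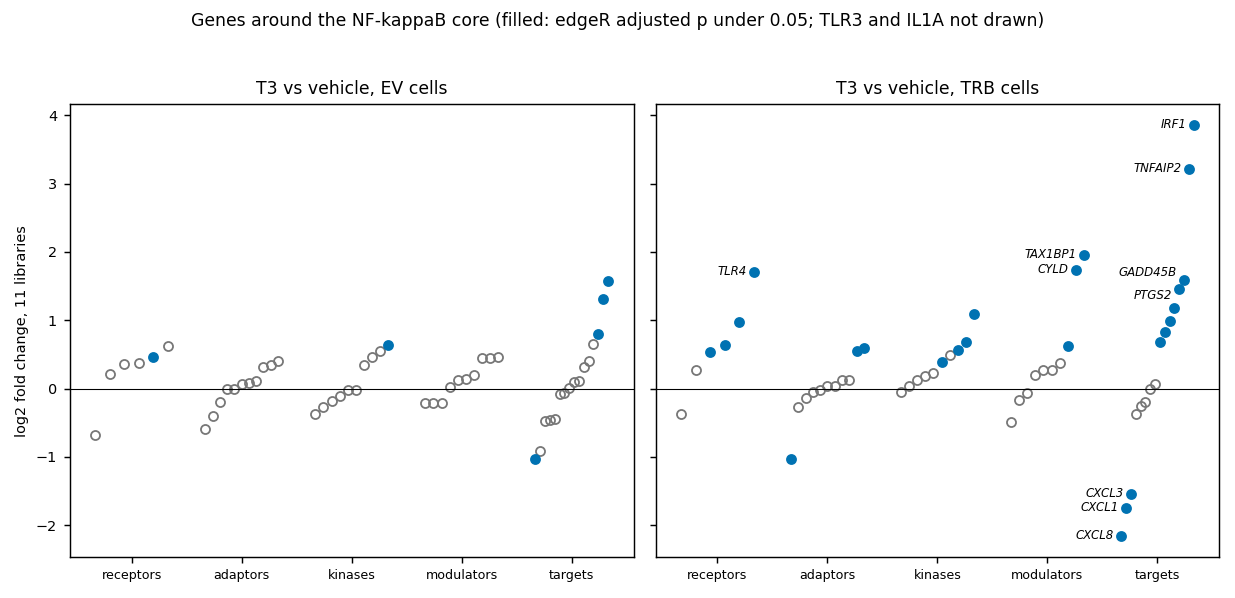
Fitted log2 fold changes with T3 (y axis, 11 libraries) of the tested genes of the 5 lists (x axis, ordered by value within a list) in EV cells (left) and TRB cells (right), filled where the edgeR adjusted p was under 0.05. TLR3 and IL1A are not drawn because a group was near 0 counts, and IRF1 lies highest in TRB cells at 3.86.

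The pattern of BCL3 over the 11 libraries was compared with that of the 10094 genes whose log2 CPM averaged 3 or more, as a description. The most alike were GAS2L1 and SH3BP1 (Pearson r 0.987 for each), LGALS3BP (0.977), DNAJB1 (0.976) and PPP1R9B (0.974). With all 12 libraries r was 0.994, 0.920, 0.989, 0.743 and 0.956 in that order. GAS2L1 stood at means of 40.9, 74.2, 39.3 and 134 CPM in EV vehicle, EV T3, TRB vehicle and TRB T3 (2 libraries in the last). The least alike were KIAA1147 (-0.991), ACYP1 (-0.986) and ADGRG6 (-0.978). The longest transcripts of the 5 most alike genes have a GC content of 53.0% to 66.4% and those of the 3 least alike 41.1% to 48.4%, and the libraries share their GC trends. Among the other NF-kappaB genes above this level, r with BCL3 over 11 libraries was -0.56 for REL and for NFKB1, 0.38 for RELA, 0.39 for NFKB2, 0.40 for RELB, 0.42 for NFKBIA and 0.48 for NFKBIB. With all 12 libraries it was -0.79 for REL, 0.26 for NFKB1, 0.77 for RELA, 0.78 for NFKB2, 0.75 for RELB, -0.33 for NFKBIA and 0.80 for NFKBIB, so that the sign for NFKB1 and NFKBIA turned with that library. NFKBIE and TNFAIP3 were below it.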

How the data were processed

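RNA sequencing of 12 libraries (4 groups of 3, from the labels) was analysed. Raw counts for each gene symbol are what the authors deposited; CASAVA 1.7, STAR 2.7, HTSeq 0.10, DESeq2 and the build hg38 are named in the submitters' processing notes, without roles. Counting strand and annotation release are not given in the sources used here, so reads of overlapping or antisense genes are uncertain. A deposited normalized table was not used. The closing lines of each file for reads of no gene (not unique 19.0% to 92.0%, outside genes 2.14% to 24.4%, ambiguous 0.258% to 1.81% of all counted) stayed out of totals and tests.

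Counts were fitted in R 4.3.3 with edgeR 4.0.16: filterByExpr (minimum count 10, minimum total 15), TMM scaling, 1 coefficient per group, two-sided quasi-likelihood tests with Benjamini-Hochberg adjustment over all genes tested, threshold 0.05. SEs come from the fitted change and its F statistic. The calling steps were run on simulated data with 1 common spread, no GC trend and no outlying library. That run cannot vouch for calls that depend on TRB T3 replicate 2 or on GC content. Alternatives were DESeq2 1.42.0, limma-voom (limma 3.58.1), other scaling and filters, the compared groups alone, a replicate block, GC offsets (spline with 5 degrees of freedom on the GC content of the longest GENCODE release 29 transcript, available for 84.1% of tested genes and all 10 reported here) and leaving out libraries. The 10 genes and the gene lists were chosen with earlier results of these data known. One gene of the leukocyte list is not reported here. From each list, in each comparison, the 2 called genes with the largest change in the 12-library fit were named, with likeness to BCL3 by Pearson r of log2 CPM (prior count 2). Replicates of a group differed by more than sampling noise in every pair (chi-square per degree of freedom 2.85 to 220), so none was merged. Depth of 3819306 to 13086717 counts puts 1 count at 0.0750 to 0.253 CPM. With 3 libraries against 3, an exact permutation test of a single gene cannot go below p = 0.1.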

Additional observations from a re-analysis of the deposited data

How the results depend on the processing

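Over 1730 values of single genes and comparisons recomputed under 35 other settings, 1658 kept their direction or stayed uncalled on the same side of the threshold, 14 lost a call, 58 gained one and 0 turned with a call, while 203 uncalled values changed sign. The 14 losses are all of 1 call, that of NFKB1 for T3 in TRB cells, the only single-gene call with 12 libraries, which passed in 21 of the 35 settings. The share of all genes called is given only for the 12-library fit and the fit without TRB T3 replicate 2. Counts of the 10 genes under the other settings therefore have no background beside them and are not to be read as support. The number of the 10 genes called for T3 in TRB cells was 1 with 12 libraries. It was 0 with RLE scaling, with genes of any count and with the compared groups alone, 2 with GC offsets (12 or 11 libraries), with the replicate block on 11 libraries and with DESeq2 on 11, and 3 with the compared groups alone on 11. For T3 in EV cells it was 0, and 1 with GC offsets, the replicate block or DESeq2 on 11 libraries. For TRB against EV in vehicle it was 0, and 1 with GC offsets on 11 libraries. For TRB against EV under T3 it was 0, and 1 with DESeq2, 3 with GC offsets, and 2 with GC offsets, the replicate block or DESeq2 on 11. For the difference of the T3 effects it was 0, and 2 with GC offsets on 12 or 11 libraries or with DESeq2 on 11, and 1 with the replicate block on 11. Leaving out 1 library, or 1 more besides TRB T3 replicate 2, gave 0 to 2 calls for T3 in TRB cells, 0 to 4 for T3 in EV cells, 0 for TRB against EV in vehicle, 0 to 3 for TRB against EV under T3 and 0 to 3 for the difference. Without TRB T3 replicate 2 it was 2, 0, 0, 2 and 0. The 4 calls for T3 in EV cells (BCL3, REL, RELB and NFKBIE) came without EV T3 replicate 2 as well. The cause of these differences was not tested. Fits on 11 libraries other than the planned one and that with GC offsets were added after seeing the data.

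Same-numbered libraries of different groups correlated in their deviations from group means from -0.19 to 0.73 (12 of 18 above 0.1), beside 9 of 36 pairs with different numbers. All 6 pairs of replicates 2 were above 0.1 (0.12 to 0.73), but TRB vehicle replicate 3 correlated better with other numbers. Since pairing was taken only where every same-numbered pair was above 0.1, the numbers were not taken to pair the libraries. With the replicate block on 12 libraries 1 gene, NFKB1, was called for T3 in TRB cells (-0.61, edgeR adjusted p 0.0393) and 0 in the other 4 comparisons. Counts of 12 to 34 in TRB T3 replicate 2 limit NFKBIE, RELB, NFKB2 and BCL3 there.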

Other observations

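The genes in this paragraph were chosen after their values were seen. MAP3K14, which encodes the NF-kappaB inducing kinase of the non-canonical branch, was higher with T3 in both cell types in the 11-library fit (EV cells 0.64, SE 0.132, edgeR adjusted p 0.0145; TRB cells 1.09, SE 0.133, edgeR adjusted p 3.99e-05) and in neither with 12 libraries (adjusted p 0.935 and 0.311). Its levels were 12.2, 13.8 and 13.9 CPM in EV vehicle, 19.0, 20.3 and 23.8 in EV T3, 15.5 to 18.3 in TRB vehicle and 31.7, 8.10 and 36.2 in TRB T3. ICAM1, an adhesion receptor gene, and GADD45B, a stress-response gene, rose with T3 in TRB cells in the 11-library fit by 1.18 (SE 0.175, edgeR adjusted p 0.000221) and 1.59 (SE 0.252, edgeR adjusted p 0.000359). Neither passed with 12 libraries (adjusted p 0.150 and 0.211), where TRB T3 replicate 2 stood at 3.60 and 1.44 CPM. TRAF5, an adaptor of TNF receptors, fell by 1.03 (SE 0.234, edgeR adjusted p 0.00441) with 11 libraries and did not pass with 12 (adjusted p 0.140). IL6 and MMP9, textbook targets of the pathway, had 0 counts in all 12 libraries, and TNF, LTB, CCL2 and VCAM1 had at most 1 count in any library.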
